A study of Aspergillus nidulans with 8 samples.

Results

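The comparison described here is the ageing of Aspergillus nidulans colonies on the medium labelled YES, from culture day 4 to culture day 10. Its members are all 11127 genes with a value in the deposited table, read on the 2 arrays of the series whose labels give YES as the growth medium, 1 for day 10 and 1 for day 4. These are 2 of 8 arrays. The other arrays came from colonies on media labelled CYA and CYAs, each sampled on days 4, 8 and 10, and are used here only as a background for the YES values. The series has no YES array of day 8.

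Aspergillus nidulans is a filamentous fungus used as a genetic model of development and of secondary metabolism. Each colony was stab-inoculated on agar, kept in darkness and scraped off whole, and the total RNA was labelled with Cy3 for a 1-colour array. No strain is given in the labels, the media are known by their abbreviations only, and nothing says whether a sample joined several plates or colonies. Both YES samples are titled YESs while their other labels read YES, and they were taken as the same medium. Both groups share everything the labels state apart from the day.

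A colony of this fungus grows outward from the inoculum, so an older colony holds hyphae of many ages. Its surface first bears conidiophores, the stalks that carry asexual spores (conidia) covered by a water-repellent hydrophobin layer. In darkness and with age it forms cleistothecia, sexual fruiting bodies nursed by thick-walled Hülle cells, whose ascospores carry a red pigment. Genes for secondary metabolites such as sterigmatocystin, austinol and penicillin lie side by side in clusters and are switched with nutrition and development, and hyphae that run out of food secrete chitinases and proteases that digest their own walls and proteins.

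Each gene's level was calculated as log2 signal, averaged over its probes, minus the array's 75th percentile of log2 signals, so 0 is the signal of a gene brighter than most. A difference is the level on day 10 minus that on day 4, and its SD is taken over the gene's probes, which are usually 3. That SD covers the measurement within 2 arrays and not the spread between cultures, of which there is none to measure. The 75th percentile of the raw signal was 4976 on the day 10 array and 1976 on the day 4 array, and 11076 and 10916 genes were well above background. The part that this gap in brightness plays in the differences was not tested. Both arrays lay on the same slide, together with the CYA arrays of days 4 and 8. The CYA array of day 10 and all CYAs arrays lay on the other slide. Differences between days 10 and 4 on CYA therefore cross slides, unlike those on YES and CYAs. Of the 11127 genes, 11109 passed the filter on dim probes and 18 did not.

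The median difference over the 11109 genes was -0.11 (log2; quartiles -0.68 and 0.55). At least 4-fold higher signal on day 10 was found for 794 genes, 7.15% of those tested, and at least 4-fold lower signal for 772 genes, 6.95%. In 1554 of these 1566 genes every probe pointed the same way. By any amount, 6123 of the 11109 genes were lower on day 10 and 4986 were higher. At least 64-fold differences were found for 90 genes higher and 43 genes lower on day 10. The median SD over probes was 0.145 for all genes and 0.255 for the genes past 4-fold. Of the 1566 genes, 1129 were also past 4-fold in the same direction in the authors' deposited table, and 0 had the opposite sign. For 26 of the 1566 genes no probe was well above background on the dimmer array.

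**Figure D1:**
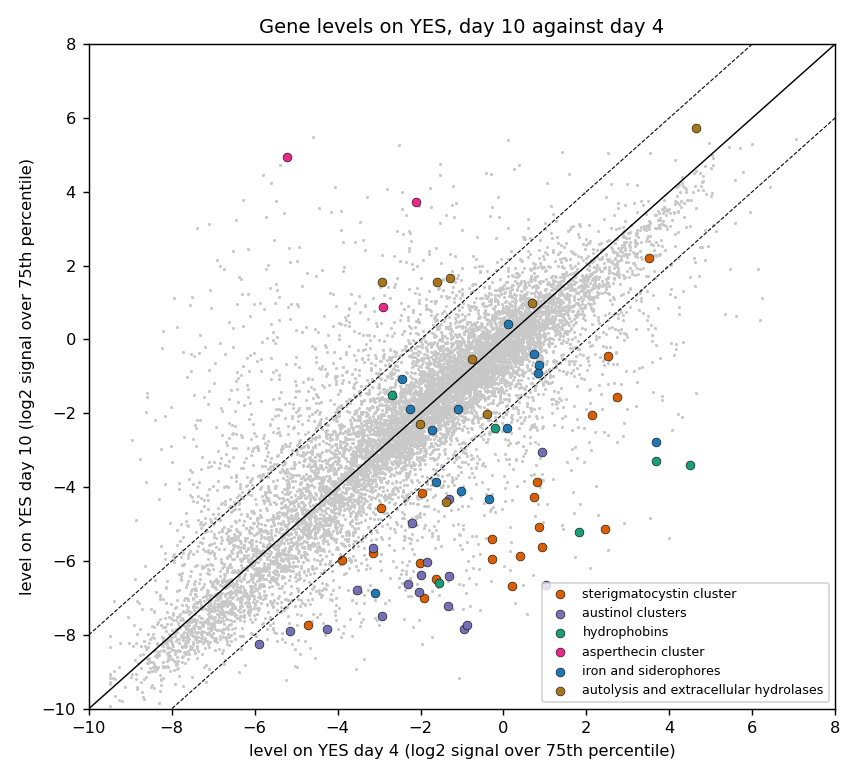
Level of every gene on YES day 10 (vertical axis) against YES day 4 (horizontal axis), both as log2 signal over the array's 75th percentile; the solid line marks equal levels, the dashed lines 4-fold differences, and coloured points the members of 6 gene lists. All 18 austinol genes, 19 of 21 sterigmatocystin genes and 5 of 6 hydrophobin genes lie below the lower dashed line (dewE lies above the solid line), while the 3 asperthecin genes lie above the upper one.

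The day 10 array of YES correlated most closely with an array of another medium. Across genes its levels correlated at 0.951 with those of CYA day 8 and at 0.892 with those of CYAs day 8. The values were 0.868 for CYA day 10 and 0.829 for YES day 4. These are descriptions over genes of single arrays. YES day 10 shared its slide with YES day 4 and CYA day 8, but not with CYA day 10 or CYAs day 8. The part that the slide plays in these values was not tested. Among the 90 genes at least 64-fold higher on day 10 than on day 4 on YES, 82 (91.1%) had a level on YES day 10 within 2-fold of that on CYA day 8, as did 86.4% of all tested genes. Within 2-fold of CYA day 10 were 7 of the 90 (7.78%), and 64.4% of all tested genes. The same 90 genes were lower on CYAs day 8 than on YES day 10 by a median of 2.24 on the log2 scale (quartiles 2.06 and 2.45). The part that a source of RNA common to these arrays plays in the differences was not tested. Of the 794 genes higher on day 10 on YES, 573 also passed 4-fold upward between CYA day 8 and CYA day 4 (72.2% of the YES genes, 66.8% of the CYA genes), and 221 did not. Of the 772 genes lower on YES, 366 also passed 4-fold downward there (47.4% and 44.9%), and 406 did not. Among all 11109 tested genes, 858 were at least 4-fold higher and 816 at least 4-fold lower on CYA day 8 than on CYA day 4.

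Most hydrophobin transcripts were far lower on day 10. The hydrophobin rodA (AN8803), which forms the rodlet layer of conidia, had a level of -3.41 on day 10 and 4.51 on day 4, a difference of -7.91 ± 0.10 (SD over 3 probes), or 241-fold. A further spore wall hydrophobin, dewA (AN8006), had -3.30 on day 10 and 3.69 on day 4, a difference of -6.99 ± 0.17. Both stood among the bright genes of the day 4 array and below most genes of the day 10 array. The differences of dewB (AN1837), dewC (AN6401) and dewD (AN0940) were -7.04, -5.03 and -2.20. The probes of dewC disagreed in size (SD 3.51). The remaining hydrophobin, dewE (AN7539), went the other way, with -1.51 on day 10 and -2.69 on day 4. Of 6 hydrophobins, 5 were at least 4-fold lower and 0 at least 4-fold higher, and their median difference was -6.01. The medians were -3.36 on CYA and -0.14 on CYAs, both for day 10 against day 4. On CYA 5 of the 6 were also at least 4-fold lower, and on CYAs 1. The differences of rodA and dewA were -6.25 and -7.71 on CYA, and -0.15 and 0.08 on CYAs. In bulk RNA, fewer conidia in the scraped colony and less RNA per conidium cannot be told apart.

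Most other structural and pigment genes of the conidium were lower by a smaller amount. The polyketide synthase of the conidial pigment, wA (AN8209, pksP in the reference), had -0.56 on day 10 and 2.54 on day 4, a difference of -3.10 ± 0.05. The pigment laccase yA (AN6635) had -3.85 on day 10 and -1.88 on day 4, just under the 4-fold mark. The catalase of conidia, catA (AN8637), had -1.86 on day 10 and 1.30 on day 4. The genes ccpA and ayg1 carry the names of A. fumigatus spore genes, for a conidial cell wall protein and an enzyme of spore pigment. They differed by -4.67 (ccpA, AN10109) and -3.59 (ayg1, AN9171), and the authors' deposited table gave -1.53 for ayg1. The list of conidium and conidiophore structure, which also holds rodA and dewA, had 8 of 10 genes lower, 6 of them at least 4-fold. Of the 10 genes 0 were at least 4-fold higher. The conidiophore pigment gene ivoA (AN10576) and the trehalase treA (AN9340) were the 2 higher ones, by 0.69 and 1.12.

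The regulators of conidiation differed by much less. The central activator brlA (AN0973) had -3.20 on day 10 and -1.77 on day 4, a difference of -1.43 ± 0.07. The regulators that act after it, abaA (AN0422) and wetA (AN1937), differed by -0.37 and -1.51. None of the 15 regulators reached 4-fold. Of them 9 were lower, beside 6123 of all 11109 tested genes, and the list median was -0.37. The upstream genes flbC (AN2421), flbD (AN0279) and stuA (AN5836) differed by -1.39, -1.18 and -1.47, whereas fluG (AN4819), needed for the signal that starts conidiation, differed by 1.27. The 7 genes used to check for conidiophores and conidia (brlA, abaA, wetA, rodA, dewA, wA and yA) were all lower on day 10, while ivoA, treA, dewE and 6 of the 15 regulators, which lie outside these 7, were higher. The summed signal of the 7 was 1.13 times the 75th percentile on day 10 and 42.2 times on day 4. Most of the day 4 sum came from rodA and dewA, with levels of 4.51 and 3.69, so it says little about the other genes. The mean level of the 7 was -3.41 on day 10 and -0.08 on day 4. All 7 were above background on both days, so none of these defining markers was absent from the sample labelled mycelium.

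Of the markers and genes of sexual development a few were higher on day 10. The gene mutA (AN7349), an alpha-1,3-glucanase of Hülle cells, had 0.52 on day 10 and -5.41 on day 4, a difference of 5.93 ± 0.05, and was the only one of the 4 Hülle cell and fruiting body markers past 4-fold. The hexose transporter hxtA (AN6923), the catalase-peroxidase cpeA (AN7388) and the tubulin tubB (AN7570) differed by 1.69, 0.79 and 0.56. The summed signal of the 4 markers was 6.59 times the 75th percentile on day 10 and 3.25 times on day 4. The same list had a median of 1.24 on YES, 0.42 on CYA and 3.44 on CYAs.

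Both mating type genes were higher, though dim. MAT1 (AN2755), which encodes the alpha-box factor, had -2.32 on day 10 and -6.54 on day 4, a difference of 4.23 ± 0.68. MAT2 (AN4734), which encodes the HMG-box factor, had -2.95 on day 10 and -5.72 on day 4. The pheromone receptor preA (AN7743) had -0.84 on day 10 and -3.47 on day 4. These 3 were the only genes of the 17 for sexual development and mating at least 4-fold higher, and 0 were at least 4-fold lower. The regulators nsdD (AN3152), nsdC (AN4263) and veA (AN1052) differed by -0.58, -0.23 and -0.65, and the early sexual gene esdC (AN9121) by 1.22. The list median was -0.58, below that of all genes.

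Asperthecin is the red pigment of ascospores, and its 3 genes were all higher on day 10. The polyketide synthase aptA (AN6000, nscA in the reference) had 4.95 on day 10 and -5.21 on day 4, a difference of 10.15 ± 0.49. Its companion aptB (AN6001) had 3.73 on day 10 and -2.12 on day 4, and aptC (AN6002) had 0.87 on day 10 and -2.90 on day 4. The 3 differences had a median of 5.84 on YES. The same medians were 4.56 on CYA and 0.82 on CYAs for day 10 against day 4, and 6.52 on CYA and 4.58 on CYAs for day 8 against day 4.

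**Figure D2:**
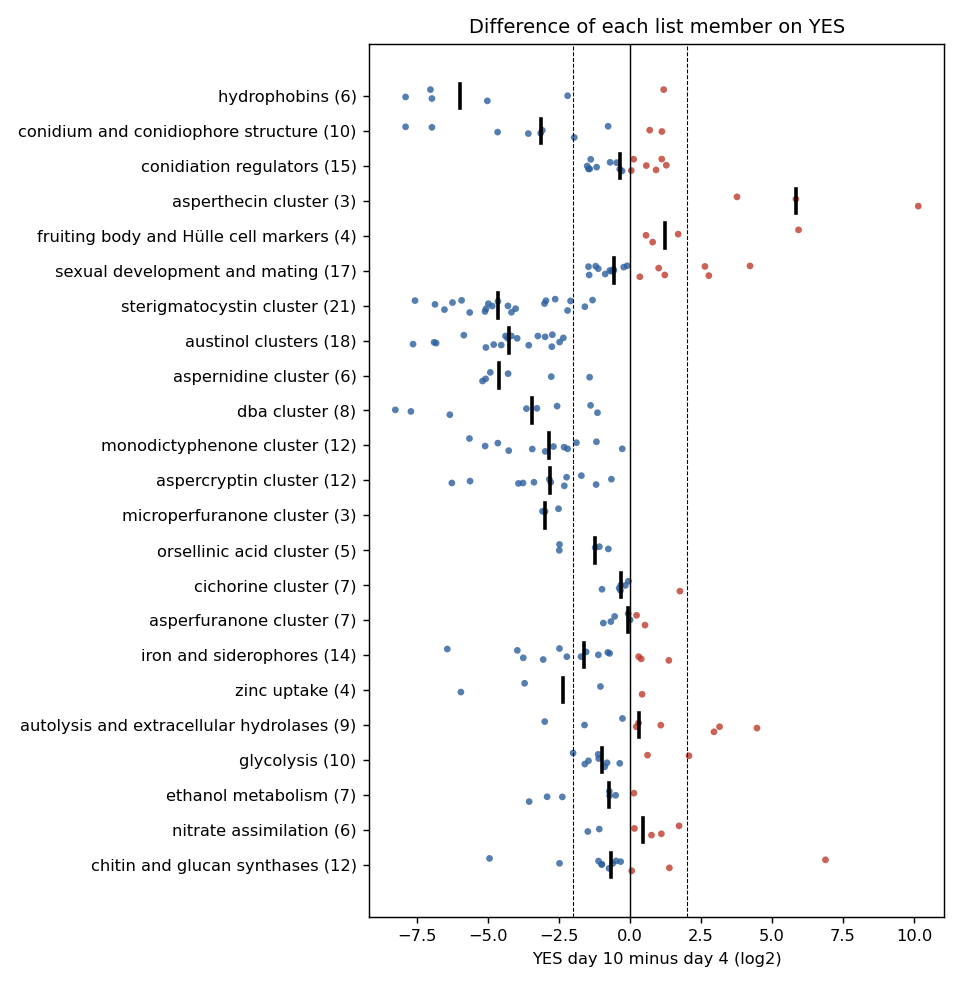
Difference of each gene on YES (day 10 minus day 4, log2) for 23 gene lists; each point is a gene, the black bar is the list median, the number in brackets is the count of genes, and dashed lines mark 4-fold. Of 6 hydrophobins 5 lie left of the lower dashed line, as do all 18 austinol genes and 19 of 21 sterigmatocystin genes. Asperthecin lies right of the upper one, and regulators of conidiation stay between them.

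Most secondary metabolite genes were lower on day 10. Over 16 clusters with 128 measured genes, 118 were lower, 77 were at least 4-fold lower (60.2%) and 4 at least 4-fold higher (3.12%), and the median difference was -2.51. The 4 higher genes were those of asperthecin and 1 of aspyridone. Over all genes 6.95% were at least 4-fold lower. Of the same 128 genes, 59 were at least 4-fold lower on CYA and 24 on CYAs, with medians of -1.76 and -0.24. The shares of all genes there were 5.11% and 1.92%. The cluster members lie next to each other and are known to be switched together, so they are not independent.

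The sterigmatocystin cluster makes a polyketide toxin that is a precursor of aflatoxin in related species. All 21 measured genes were lower on day 10, 19 of them at least 4-fold, with a median of -4.66. The ketoreductase stcU (AN7806) had -5.14 on day 10 and 2.45 on day 4, a difference of -7.58 ± 0.22. The polyketide synthase stcA (AN7825) had -2.05 on day 10 and 2.13 on day 4. The cluster's activator aflR (AN7820) had -4.17 on day 10 and -1.96 on day 4, a smaller difference of -2.21 ± 0.51. The fatty acid synthase genes stcJ (AN7815) and stcK (AN7814) differed by -4.04 and -2.10, and stcK had -1.61 in the deposited table. The list medians were -4.83 on CYA and 0.43 on CYAs, so the cluster stood lower on day 10 on YES and CYA and near its day 4 level on CYAs.

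Austinol is a meroterpenoid, built from a polyketide and a prenyl chain by enzymes of 2 clusters, and all 18 measured genes were at least 4-fold lower. Their median difference was -4.25, and it was -2.52 after normexp background correction with quantile normalization and -2.68 in the deposited table, where 12 of the 18 reached 4-fold. The polyketide synthase ausA (AN8383) had -3.05 on day 10 and 0.93 on day 4, a difference of -3.98 ± 0.04. The prenyltransferase ausN (AN9259) had -6.40 on day 10 and -1.31 on day 4. The largest difference was that of AN8384, with -6.64 on day 10 and 1.01 on day 4. Both clusters took part, although they lie on different chromosomes, V and VIII. The list median was -0.86 on CYA and -0.12 on CYAs for day 10 against day 4. The smallest adjusted p of the difference between media was 0.257 among these genes (limma), so no gene passed it.

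Of the aspernidine genes 5 of 6 were at least 4-fold lower, with a median of -4.61. This median was -2.87 after normexp with quantile normalization and -3.03 in the deposited table. Their polyketide synthase pkfA (AN3230) had -5.54 on day 10 and -0.61 on day 4. On CYA and on CYAs 5 of 6 aspernidine genes were also at least 4-fold lower, with medians of -2.36 and -3.26. In the dba cluster, named for derivatives of benzaldehyde, 6 of 8 genes were at least 4-fold lower, with AN7902 at -6.19 on day 10 and 2.09 on day 4 and the synthase dbaI (AN7903) at -8.07 on day 10 and -1.71 on day 4. The 8 genes of the cluster ranged from -8.28 to -1.15. On CYA 7 of the 8 were at least 4-fold lower and on CYAs 3. The list median was -3.47 on YES, -4.33 on CYA and -1.52 on CYAs.

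Monodictyphenone is a polyketide related to the emodins. Of its 12 genes 12 were lower and 9 at least 4-fold lower, with a median of -2.85. The synthase mdpG (AN0150) had 2.93 on day 10 and 5.13 on day 4, and stayed bright on both days. The regulator mdpE (AN0148) differed by only -0.28 ± 0.02. The dehydratase-like mdpB gene AN10049 (arp1 in the reference) had 1.13 on day 10 and 6.24 on day 4. Thus members of this cluster spanned differences from -5.66 to -0.28. On CYA 6 of the 12 were at least 4-fold lower and on CYAs 0, with medians of -1.97 and -0.73.

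The aspercryptin genes, which include the peptide synthetase atnA (AN7884; -3.61 on day 10 and -0.77 on day 4), were lower in 12 of 12 cases and at least 4-fold in 9. Of these 12, 7 reached 4-fold in the deposited table. At least 4-fold lower were 4 of the 12 on CYA and 6 on CYAs. All 3 microperfuranone genes were at least 4-fold lower, among them the synthetase micA (AN3396), with -2.80 on day 10 and 0.29 on day 4. On CYA 2 of the 3 and on CYAs 1 were at least 4-fold lower. Of 5 orsellinic acid genes 2 were at least 4-fold lower, orsC (AN7912) and orsE (AN7914), by -2.49 and -2.50. The polyketide synthase orsA (AN7909) differed by -1.09. On CYA 3 of the 5 orsellinic acid genes and on CYAs 4 were at least 4-fold lower. Among single synthase genes, the polyketide synthase pkgA (AN7071) had -4.59 on day 10 and -0.29 on day 4 and the peptide synthetase inpB (AN3496) had -4.16 on day 10 and -1.08 on day 4.

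Of 4 emericellamide genes 1 and of 8 pimaradiene genes 3 were at least 4-fold lower, with medians of -1.15 and -1.34, and the pimaradiene median was -0.73 in the deposited table. The 3 terrequinone genes had a median of -1.19, and -0.43 in the deposited table.

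Some clusters differed little between the days. The cichorine genes had a median of -0.33 and 0 of 7 reached 4-fold on YES. On CYA their median was -2.30 and 4 of 7 were at least 4-fold lower. The asperfuranone genes had a median of -0.07, and most were dim on both days. Aspyridone genes had a median of -0.32 with 1 of 8 at least 4-fold higher, AN8410 (2.01, and 1.34 in the deposited table).

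The penicillin genes split. Isopenicillin N synthase, ipnA (AN2622), had -6.25 on day 10 and -2.46 on day 4, a difference of -3.79 ± 0.40, while the acyltransferase aatA (AN2623), which acts last, differed by 0.28 ± 0.06. The first enzyme, acvA (AN2621), was not well above background on day 10 and was at least 1.9-fold lower there. The deposited table gave -2.48 for ipnA and -0.20 for acvA. On CYA and CYAs all 3 were at least 4-fold higher on day 10, by medians of 2.94 and 2.43. The difference between media had adjusted p = 0.257 for ipnA (limma) and did not pass.

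Genes with neighbouring locus tags often lay past 4-fold as blocks. Their order was taken from the tag numbers and not from mapped positions. With at least 4 measured genes in a row in this order, all past 4-fold in 1 direction, 22 runs were found. Of these runs 8 were higher and 14 lower on day 10, with 126 genes. The longest was AN7804 to AN7821 on chromosome IV, with 17 lower genes of the sterigmatocystin cluster. In the deposited table, with 12 runs in all, it was split into AN7804 to AN7808 and AN7815 to AN7819, with 5 genes each, and the longest run was AN3252 to AN3257 with 6 lower genes. The 17 genes were preceded by AN7795 to AN7800 with 6 lower genes, of which mirA is a siderophore transporter gene. A run of 13 lower genes, AN9246 to AN9260 on chromosome VIII, covered the larger austinol cluster. The 7 genes AN7891 to AN7897 on chromosome II included AN7893, which had -5.70 on day 10 and 2.53 on day 4. These last 3 runs were not found in the deposited table.

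**Figure D3:**
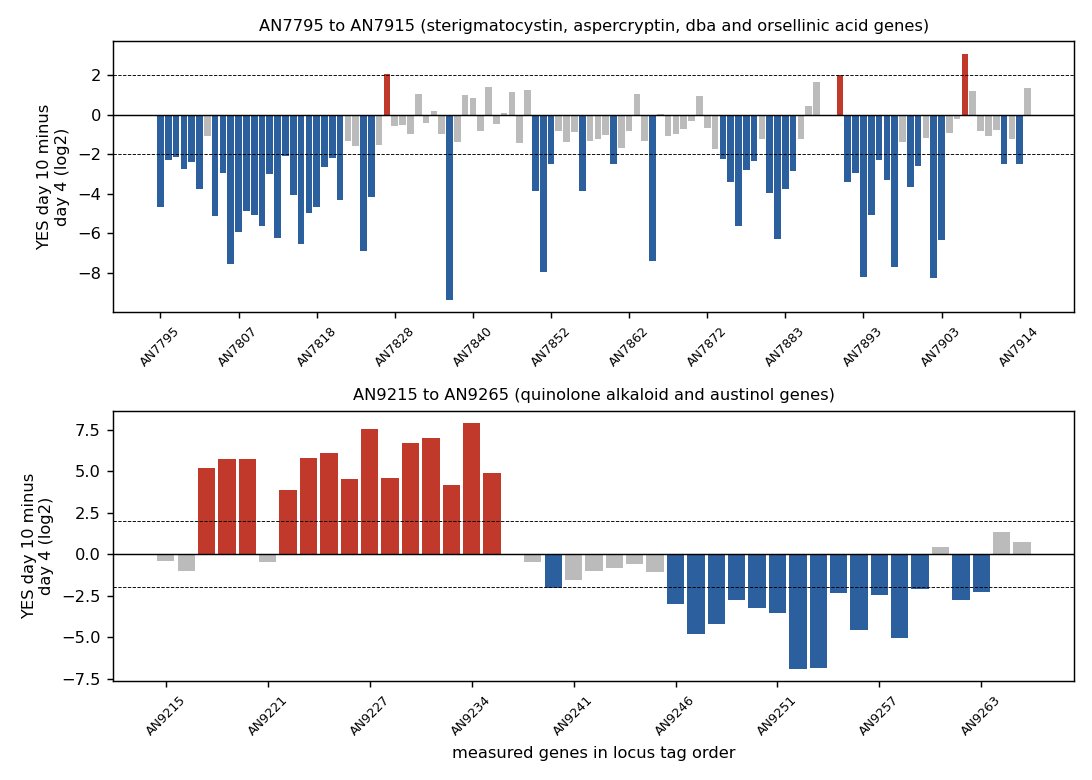
Difference on YES (day 10 minus day 4, log2) for measured genes in locus tag order in 2 stretches; blue bars are at least 4-fold lower, red bars at least 4-fold higher, grey bars neither, and dashed lines mark 4-fold. In the upper panel (chromosomes IV and II) 54 of 112 genes were at least 4-fold lower; in the lower panel (chromosomes VI and VIII) 14 of 43 were at least 4-fold higher and 16 lower, so tags that adjoin across 2 chromosomes are not neighbours.

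Runs of higher genes were fewer. The runs AN9223 to AN9227 and AN9230 to AN9235, on chromosome VI, lie in the region of the quinolone alkaloid genes and had medians of 5.81 and 5.79. In the first, AN9227 had 1.24 on day 10 and -6.30 on day 4. In the second, AN9234 had 0.84 on day 10 and -7.06 on day 4, and its probes had an SD of 2.49, with 1 of 3 well above background on day 4. Most of these genes were near the dim end on day 4. Over the same genes the medians in the deposited table were 3.66 and 3.98, where the first was also a run and the second was not. For day 10 against day 4 their medians were 7.59 and 3.79 on CYA, and 2.49 and 2.05 on CYAs. A further run, AN1784 to AN1787 on chromosome VII, had a median of 4.51, against 5.19 on CYA and 2.00 on CYAs. It included AN1784 (pyr2 in the reference), with -1.86 on day 10 and -6.82 on day 4. The run AN8637 to AN8642 on chromosome III, which begins at catA, had 6 lower genes with a median of -4.20, against 0.25 on CYA and -0.53 on CYAs. Its gene AN8640 had -1.80 on day 10 and 3.20 on day 4.

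Of 14 genes for iron and siderophores 11 were lower on day 10, 6 of them at least 4-fold. Siderophores are small molecules that fungi secrete to bind iron, and mirB (AN8540) encodes the transporter that takes up triacetylfusarinine C. It had -2.77 on day 10 and 3.67 on day 4, a difference of -6.44 ± 0.08, or 87.1-fold. The enzyme of the first step of siderophore synthesis, sidA (AN5823), had -4.33 on day 10 and -0.35 on day 4. The genes sidI (AN0609), sidD (AN6236) and sidH (AN6235), of the extracellular siderophore, differed by -3.06, -2.49 and -2.23. The intracellular siderophore synthetase sidC (AN0607) differed by -1.55. The iron regulators differed in opposite directions, with hapX (AN8251), which acts under iron shortage, at -1.73 and sreA (AN0176), which represses uptake, at 1.36. None of the 14 was at least 4-fold higher. On the other media 1 gene on CYA and 0 on CYAs were at least 4-fold lower. The list median was -1.64 on YES, against -0.35 on CYA and -0.33 on CYAs, and it was 0.36 for CYA day 8 against day 4.

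Of 4 zinc transporter genes 2 were at least 4-fold lower. The high affinity transporters zrfA (AN8337) and zrfC (AN1833), named after their A. fumigatus counterparts, differed by -5.96 ± 0.21 and -3.72 ± 0.66. The level of zrfA was -6.62 on day 10 and -0.66 on day 4. The remaining pair, zrfB (AN3799) and zrfD (AN10468), differed by -1.05 and 0.42. The deposited table gave -4.20 for zrfA. For zrfA the difference was -0.73 on CYA and 0.28 on CYAs, and the adjusted p of the difference between media was 0.257 (limma).

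Glycolysis genes mostly stayed under 4-fold. Of 10 such genes 8 were lower, with a median of -1.0, and only the isomerase pgiA (AN6037; 2.03 on day 10 and 4.04 on day 4) was at least 4-fold lower. Of the 10, 0 were at least 4-fold lower and 1 higher in the deposited table. The glucokinase glkA (AN8689) went the other way, with 1.29 on day 10 and -0.78 on day 4, a difference of 2.07 ± 0.12. Pyruvate decarboxylase, pdcA (AN4888), which leads to ethanol, had 1.91 on day 10 and 5.47 on day 4. Its difference was -3.56 on YES, against -3.43 on CYA and -4.52 on CYAs. The alcohol dehydrogenase genes alcA (AN8979) and alcC (AN2286) differed by -2.93 and -2.39. The gene frdA (AN10296), named for fumarate reductase, had -3.81 on day 10 and 0.95 on day 4.

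Genes for nitrate use, which is switched on when better nitrogen sources run out, differed in both directions on YES. Of 6 nitrate assimilation genes 0 reached 4-fold on YES, with a median of 0.45 and a range of -1.49 to 1.72. On CYA and CYAs 4 of 6 were at least 4-fold lower, with medians of -3.23 and -3.41. The nitrate transporter gene nrtB (AN0399) had 0.40 on day 10 and -0.70 on day 4 on YES, and nitrate reductase, niaD (AN1006), had -5.19 on day 10 and -4.11 on day 4. The smallest adjusted p of the difference between media among these 6 genes was 0.257 (limma), so none passed. Proline use stood out among the other nitrogen genes. Proline oxidase, prnD (AN1731), had 2.12 on day 10 and -2.49 on day 4, a difference of 4.61 ± 0.14, and the proline permease prnB (AN1732) had -0.42 on day 10 and -3.26 on day 4. These were the 2 of 20 other nitrogen genes at least 4-fold higher. On CYA prnD had -1.83 on day 4, 1.43 on day 8 and -1.94 on day 10.

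Some secreted hydrolases tied to autolysis were higher. The metalloprotease AN7962 (mep20 in the reference) had 1.55 on day 10 and -2.92 on day 4, a difference of 4.47 ± 0.05. The autolytic chitinase chiB (AN4871) had 1.66 on day 10 and -1.29 on day 4. The alkaline protease prtA (AN5558) was bright on both days, 5.72 on day 10 and 4.64 on day 4. The chitinase chiA1 (AN8241) went the other way by -3.01. Of 9 such genes 3 were at least 4-fold higher and 1 lower, and the median was 0.30. Their regulator xprG (AN1414) differed by 0.21.

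Cell wall synthesis split by gene. The chitin synthase AN1046 (chsD in the reference) had 2.96 on day 10 and -3.93 on day 4, a difference of 6.88 ± 0.59 and 118-fold. Its level on CYA day 8 was 3.02. The alpha-glucan synthase AN5885 (ags2 in the reference) had -5.38 on day 10 and -0.42 on day 4. The cellulose synthase-like celA (AN8444) differed by -2.49, and the other 9 genes for chitin and glucan synthases stayed under 4-fold. The glucanase exg1 (AN4052) had 2.78 on day 10 and -0.63 on day 4, and the glucan transferase bgt2 (AN7950) had 0.19 on day 10 and 2.80 on day 4. Among 22 genes for plant polysaccharides, 3 were at least 4-fold higher and 3 lower. They were the cellobiohydrolase cbhC (AN5282), the pectate lyase pelA (AN0741) and the feruloyl esterase AN1772, by 3.35, 3.06 and 2.42, and the pectin methylesterase pmeA (AN3390), the endoglucanase eglD (AN1602) and the xylanase xlnA (AN3613), by -5.96, -3.64 and -2.47. The deposited table gave -3.81 for pmeA, -2.31 for eglD and -0.97 for xlnA, and 2.03 for pelA.

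The largest differences belonged mostly to genes without a symbol. The 12 largest higher on day 10 included AN7957, at 4.44 on day 10 and -5.79 on day 4, a difference of 10.23 ± 0.06. AN2330 had 5.47 on day 10 and -4.60 on day 4. AN7613 had 4.24 on day 10 and -5.62 on day 4. All 12 lay between 9.05 and 10.41, and aptA was 1 of them. The levels of all 12 on YES day 10 were within 2-fold of those on CYA day 8, which holds for 86.4% of all tested genes. On CYA day 10 their level was lower than on YES day 10 by a median of 5.40. The probes of AN7235 and AN2807 had SDs of 2.45 and 3.81. On day 4, 6 of the 12 genes (AN7235, AN2400, AN6020, AN11856, AN5319 and AN2807) had probes not well above background. With those probes set at the background limit these 6 were 284-fold to 942-fold higher on day 10, so the order among the 12 is uncertain.

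**Figure D4:**
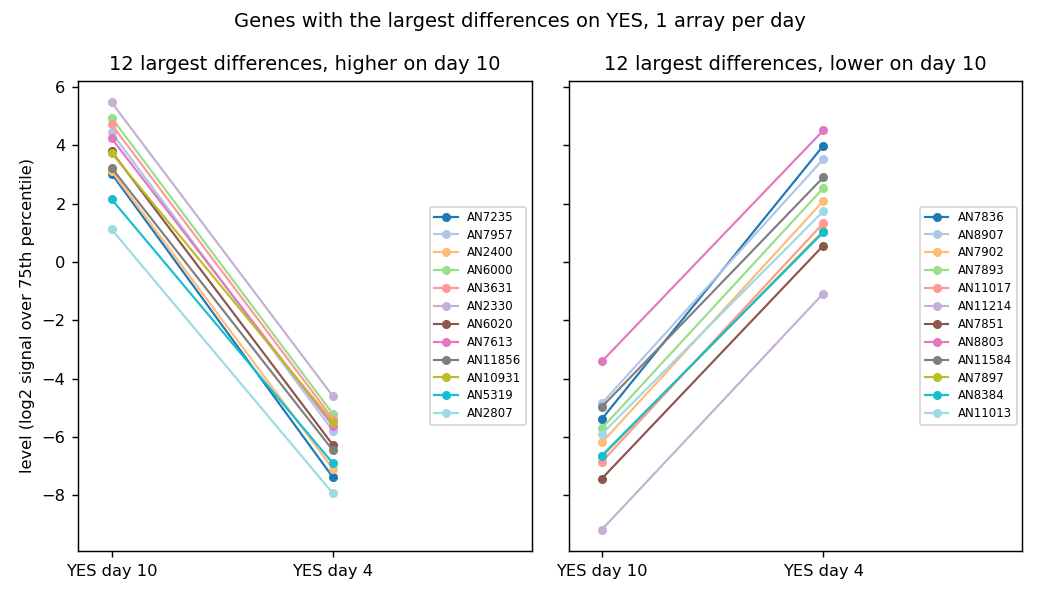
Levels (log2 signal over the 75th percentile) on YES day 10 (left) and YES day 4 (right) of the 12 genes with the largest difference in each direction; each line is a gene on 1 array per day. The genes higher on day 10 lie at 1.12 to 5.47 on day 10 and at or under -4.60 on day 4.

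Among the 12 largest lower on day 10, AN7836 had -5.38 on day 10 and 3.98 on day 4, a difference of -9.36 ± 0.21. Its levels on CYA were 3.38, 3.04 and 5.12 on days 4, 8 and 10, and on CYAs 5.68, 5.05 and 6.55, so YES day 10 was the only dim array of the 8. AN8907 had -4.85 on day 10 and 3.52 on day 4, and AN11584 had -4.97 on day 10 and 2.90 on day 4. Both were also lower on day 10 on CYA (-7.86 and -10.85) and CYAs (-4.23 and -6.05). AN11017 and AN11013 differed by -8.18 and -7.63 on YES, by -5.81 and -5.84 on CYA and by 1.37 and 0.90 on CYAs. The dba gene AN7897 had -6.67 on day 10 and 1.06 on day 4. AN7902, AN7893, AN8384 and rodA, described above, were also among the 12. AN11214 was -9.17 on day 10 and -1.08 on day 4, and its difference of -8.09 was -4.17 in the deposited table. On day 10, 1 of its 3 probes was well above background.

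Genes with a reference symbol added further names. AN1165 (ksrA) had 4.74 on day 10 and -1.54 on day 4, AN0829 (pdeA) had 2.65 on day 10 and -3.57 on day 4, and the aminopeptidase lap1 (AN7035) had 3.35 on day 10 and -0.34 on day 4. Their levels on CYA day 8 were 4.99, 2.74 and 3.24. On the lower side, AN8333 (aspf34, named for an A. fumigatus allergen) had -2.46 on day 10 and 4.07 on day 4, and AN6273 (aspf13) had -0.06 on day 10 and 4.33 on day 4. Both were also lower on day 10 on CYA, by -4.56 and -2.48, and on CYAs, by -5.79 and -2.63.

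With 1 array per day there is no replicate for a test of YES alone. The only spread in the design is how far CYA and CYAs differ in their change over days, which is not a spread between replicates. A limma fit over all 8 arrays used this spread for YES too, with 2 residual degrees of freedom and 2.62 prior degrees of freedom. It called 0 of 11109 genes at an adjusted p under 0.05 (0%), and 1925 genes had an unadjusted p under 0.05. The smallest adjusted p was 0.0747. Among the genes with that value were AN7836 (-9.36, SE 0.49), chsD (6.88, SE 0.64), zrfA (-5.96, SE 0.55) and AN3631 (10.10, SE 0.90). Without the day 4 array of CYAs or that of CYA, which give the same fit, 419 genes were called (208 higher, 211 lower), with 0.0149 as the smallest adjusted p. No list member passed the test with all 8 arrays, and the lists as groups were not tested.

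The difference between YES and the other media was also tested. The limma test of the change over days on YES against that on CYA and CYAs called 0 genes (0%), with 0.222 as the smallest adjusted p and 1491 genes at an unadjusted p under 0.05. The share of genes at least 4-fold higher on day 10 than on day 4 was 7.15% on YES, against 4.09% on CYA (454 genes) and 9.83% on CYAs (1092 genes). The share at least 4-fold lower was 6.95% on YES, against 5.11% on CYA (568 genes) and 1.92% on CYAs (213 genes). Of the genes lower on YES, 295 were also at least 4-fold lower on CYA (38.2% of the YES genes, 51.9% of the CYA genes) and 116 on CYAs (15.0% and 54.5%). Of the genes higher on YES, 201 were also higher on CYA (25.3% and 44.3%) and 199 on CYAs (25.1% and 18.2%). For 235 of the higher genes (29.6%) and 251 of the lower genes (32.5%), neither other medium reached 2-fold in the same direction. These counts include genes that went the opposite way there, and the same share over all tested genes was not counted. Past 4-fold the opposite way were 9 of the higher genes on CYA and 1 on CYAs. Of the lower genes these were 10 on CYA and 25 on CYAs.

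**Figure D5:**
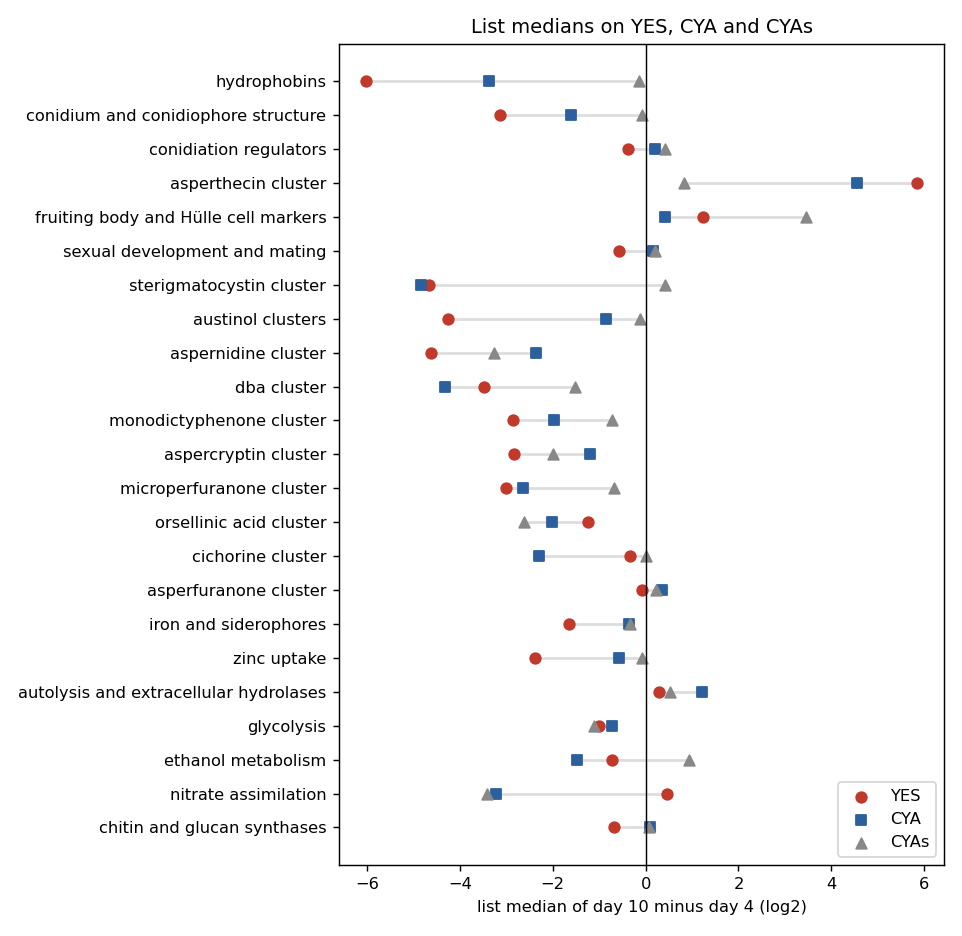
Median difference of 23 gene lists between day 10 and day 4 (log2) on YES (red circles), CYA (blue squares) and CYAs (grey triangles). Sterigmatocystin stands near -4.7 on YES and near -4.8 on CYA but above 0 on CYAs, whereas nitrate assimilation stands above 0 on YES only.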

How the data were processed

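Per the file headers, Agilent Feature Extraction 10.5.1.1 wrote the probe intensity values. The background method behind them was not established here. The deposited table holds 1 log2 value per gene and array. Per the submitters' processing notes, limma and RMA were used, in unstated steps. Its values served as an alternative only.

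Here, processed signals were put on the log2 scale, centred on each array's 75th percentile and averaged over a gene's probes (3 probes for 10705 genes, 2 for 256 and 1 for 166). Control and outlier spots were left out, and genes needed 1 or more probes well above background on 2 or more arrays. limma 3.58.1 in R 4.3.3 fitted YES day 10 against day 4, and the change on YES against that on CYA and CYAs, over all 8 arrays (lmFit and eBayes, Benjamini-Hochberg). It was tested on simulated data.

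Locus tags of 10413 genes were found in the RefSeq table (assembly ASM1142v1, from strain FGSC A4), with a symbol for 779. Other names of list members come from general knowledge of this fungus, and the reference used here holds no product names or sequences. The members and lists were chosen with earlier results of these data known. Genes were named by rule: the 12 largest differences in each direction past 4-fold, above background on the brighter array, with every probe and the deposited table going the same way past 4-fold; the same among genes with a symbol; and up to 5 members of each list with the largest difference plus the synthase genes. A member of the autolysis list is not reported by name here. Some further list members, genes of runs and the levels on CYA and CYAs day 8 were added after their values were seen. Alternatives were normexp (offset 50) with quantile normalization, the deposited table, array median scaling, probe medians, filters, fold thresholds, slide as a block and leaving out arrays.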

Additional observations from a re-analysis of the deposited data

Results flagged for a closer look

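For day 10 against day 4, 11 of 53 gene lists had a median of one sign on YES and the other sign on both other media. In 3 of them the YES median was at least 2 (log2) away from both others, and the 8 with smaller gaps are not described here. The terrequinone genes had -1.19 on YES, against 1.12 on CYA and 1.28 on CYAs, and -0.43 on YES in the authors' deposited table. The penicillin genes had -1.64 on YES, against 2.94 on CYA and 2.43 on CYAs, and -0.20 on YES in the authors' deposited table. With 3 genes, that YES median is the value of acvA, which was not well above background on day 10. The nitrate assimilation genes had 0.45 on YES, against -3.23 on CYA and -3.41 on CYAs. For CYA day 8 against day 4 the same medians were -1.15, 0.62 and -2.98. Of single genes, AN7836 differed by -9.36 on YES, against 1.74 on CYA and 0.87 on CYAs, and prnD (AN1731) by 4.61 on YES, against -0.11 on CYA and -0.89 on CYAs. The differences between list medians were not tested, and no single gene passed the test between media.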

How the results depend on the processing

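No paired analysis was possible because each medium and day has 1 array and the labels give no replicate numbers. With normexp and quantile normalization 514 genes were at least 4-fold higher and 478 lower on day 10; past 2-fold there were 1793 and 1840, and past 8-fold 409 and 365. The median of the aspernidine list was -2.87 (normexp with quantile normalization) and -3.03 (deposited table), that of austinol -2.52 and that of microperfuranone -2.69 (both normexp with quantile normalization). The median of ribosomal proteins, -0.39, turned to 0.0347 with normexp and quantile normalization and to 0.0215 in the deposited table. Runs of neighbours numbered 75 at 2-fold and 12 in the deposited table. Leaving out single CYA or CYAs arrays gave 0 to 419 called genes for YES; the test between media gave 0 to 0. Limma called 0 genes for YES under the other alternatives, including only days 4 and 10, chosen after seeing the data, with 0.117 as the smallest adjusted p. The cause of these shifts was not tested. Of the other alternative list medians, 206 moved by less than 1 SD over the list's genes: 168 kept their sign and stayed within 1.5 times, 32 kept their sign and moved by more, and 6 small ones changed sign (asperfuranone, peroxisome biogenesis, and replication and mitosis, all at most 0.229 in size). With normexp and quantile normalization the penicillin median was -0.19 and that of terrequinone -0.32. Dim signals limit the sizes of differences: 26 of the 1566 genes past 4-fold had no probe above background on the dimmer array.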

Other observations

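Housekeeping groups differed by small amounts on YES. All 15 proteasome genes were lower on day 10, with a median of -0.84 and a range of -1.23 to -0.37, and all 15 were also lower in the deposited table and after normexp with quantile normalization. On CYA and CYAs their medians were -0.71 and -0.58. Of 9 genes for mitochondrial import 8 were lower on day 10, with a median of -0.95, and of 10 chaperone genes 9, with a median of -0.69. None of these 3 lists had a member past 4-fold.

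Sterol synthesis genes were lower in 12 of 18 cases, beside 6123 of all 11109 tested genes. The 3 at least 4-fold lower were erg24B (AN4094; -1.75 on day 10 and 1.26 on day 4), erg13 (AN4923, by -2.45) and erg2 (AN0451, by -2.05). The squalene synthase erg9 (AN10396) went the other way by 1.47. The opsin-like gene nopA (AN3361) had 2.50 on day 10 and 4.73 on day 4, the largest difference among 5 light receptor genes in these dark-grown colonies.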
